A study of Saccharomyces cerevisiae with 24 samples.

Results

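The strains *rpb1-CTD13* and *rpb1-CTD20* of the budding yeast *Saccharomyces cerevisiae* carried an RNA polymerase II whose C-terminal domain (CTD) was cut to 13 or to 20 repeats, and their mRNA levels were set against each other. The comparison took 4 of the 24 arrays of the series, 2 for each strain, chosen by their titles alone. In both strains the truncation was made at *RPB1* itself by a stop codon followed by a NAT resistance cassette, and the control *RPB1-CTDWT* (labelled with 26 repeats) carried the cassette behind the native stop codon. The other groups used here were wild type (8 arrays), a wild type labelled with 330 rpm agitation (2 arrays), *RPB1-CTDWT*, *rpb1-CTD12* and *rpb1-CTD11* (2 arrays each), and the last 2 truncations combined with deletion of *CDK8* (2 arrays each). The 8 wild type arrays carried the labels k1, k2 and k3, whose meaning was not stated, and were treated as 1 group. All strains were labelled BY4742, an alpha-mating laboratory strain, and were grown to mid-log phase at 30 C in synthetic complete medium with glucose, at 230 rpm unless labelled otherwise. The 2 arrays of a strain came from separate cultures. Whether a strain was represented by more than 1 isolate was not given in the sources used here, so a difference between strains cannot be told apart from a difference between isolates.

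The CTD is a tail of repeated heptapeptides on the largest subunit of RNA polymerase II. Its serines are phosphorylated and dephosphorylated through the transcription cycle, and the tail binds the Mediator complex at promoters and capping, chromatin and termination factors along the gene. Yeast tolerates loss of part of the tail, and shorter tails weaken the response of many genes to activators.

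Each array held 2 spots for each of 6388 gene probes, of which 5326 carried a gene name. RNA of the strain was hybridised against a common reference made from a wild type culture, with the strain in Cy3 on its a array and in Cy5 on its b array, and every value is given as log2 strain over reference. A difference of 1 on this scale is a doubling. The median spot signal of the 4 samples was between 351 and 626, and 86.1% to 96.8% of probes were above the signal of empty spots, with the lowest share on the *rpb1-CTD20* b array. Genes specific to alpha cells had a summed signal of 22854 to 44160 over the 4 arrays and genes specific to a cells 719 to 1153, as the labelled mating type would give. *SSN3*, which encodes Cdk8, read -1.79 to -1.60 on the 4 arrays of *CDK8* deletion strains and -0.36 to 0.22 on the other 20, so the direction of the ratios held in both dye orientations.

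The engineered gene itself was the probe with the largest decrease. *RPO21*, the array's name for *RPB1*, read -1.45 and -1.26 in *rpb1-CTD13* against -0.12 and -0.13 in *rpb1-CTD20*. The difference was -1.23 (95% interval -1.61 to -0.86; limma, adjusted p = 0.000416). The wild type arrays ran from -0.25 to 0.57, so *rpb1-CTD20* lay inside the wild type range and *rpb1-CTD13* far below it. The low level was not ordered by tail length: *RPB1-CTDWT*, with the native tail, read -0.97 and -0.54, *rpb1-CTD12* -1.22 and -1.02, *rpb1-CTD11* -1.11 and -1.09, and the *CDK8* deletion strains -1.84 to -1.60. Of the marked strains only *rpb1-CTD20* kept a level within the wild type range, and which part of the transcript the probe reads is not given, so the value does not check the truncation. The 10 nearest measured genes, 5 on each side on chromosome IV, differed by at most 0.26 in size (*YDL144C*, -0.26, adjusted p = 0.0287) and none passed an adjusted p of 0.01. The *RPO21* call was lost without the *rpb1-CTD13* a array (adjusted p = 0.0101) and without the *rpb1-CTD20* a array (adjusted p = 0.0106).

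Both strains shared a pattern of auxotrophy markers that set them apart from wild type, although all carry the same strain label. *LYS2*, a lysine synthesis gene, read 2.73 and 2.68 in *rpb1-CTD13* against 2.74 and 3.50 in *rpb1-CTD20*, and *MET17*, a homocysteine synthase gene, read -4.53 and -4.49 against -4.94 and -4.87. Neither passed between them: the difference was -0.42 (95% interval -0.75 to -0.09; adjusted p = 0.180) for *LYS2* and 0.39 (95% interval 0.19 to 0.60; adjusted p = 0.0304) for *MET17*, which was above background on only 1 of the 2 *rpb1-CTD20* arrays. In the wild type both genes lay near 0 (-0.04 to 0.12 for *LYS2*, -0.12 to 0.27 for *MET17*), as they did in *RPB1-CTDWT* (means 0.08 and 0.21). Both markers thus lay apart from wild type in the same direction in both truncations, and any comparison of either with *RPB1-CTDWT* or wild type holds this difference too. The study's strain table lists strain sets that differ in such markers, without saying which was used for the arrays. Whether these values come from the strain background was not tested. *CAN1*, *LYP1*, *HIS3*, *LEU2* and *URA3* differed by 0.15 or less, with adjusted p from 0.227 to 0.997.

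Few genes separated the strains. With a fold change above 1.7 required beside an adjusted p below 0.01, 7 probes were higher in *rpb1-CTD13* (0.11% of those tested) and 7 were lower (0.11%). The named genes among the higher probes were *FIT3*, *ASP3-3* and *PDR15*, and among the lower *RPO21*, *YRO2*, *DCG1*, *YHB1*, *SNZ3* and *ENA2*. At the adjusted p alone, 26 probes were higher (0.407%; 18 named) and 73 lower (1.14%; 55 named), and these 99 probes (1.55%) are the ones described as higher or lower below. At an unadjusted p under 0.05 the counts were 405 and 591. With the spiked-in controls set to 0, which moved the median of all probes to -0.21, 5 probes were called higher and 24 lower, and 6 and 37 passed the adjusted p alone. The spiked-in spots had medians of 0.34 and 0.84 on the *rpb1-CTD13* a and b arrays, and 0.50 and 0.26 on those of *rpb1-CTD20*. This setting thus moved the difference up on the a arrays and down on the b arrays, so the shift did not repeat between replicates. All 99 differed in the same direction in both dye orientations, against 64.7% of all probes, and in 98 of them the arrays of the strains did not overlap, against 24.7% of all probes. Both counts follow largely from choosing the 99 by adjusted p on these same arrays, so they are not separate support. For the rest the strains were close: the median size of a difference was 0.06, and for 6323 of the 6388 probes the 95% interval lay within 1.7-fold either way. A culture is a population, so fewer cells with a transcript and less of it per cell cannot be told apart, and with 2 arrays a strain the p-values rest on a spread pooled over all 9 groups (14 residual degrees of freedom).

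**Figure D1:**
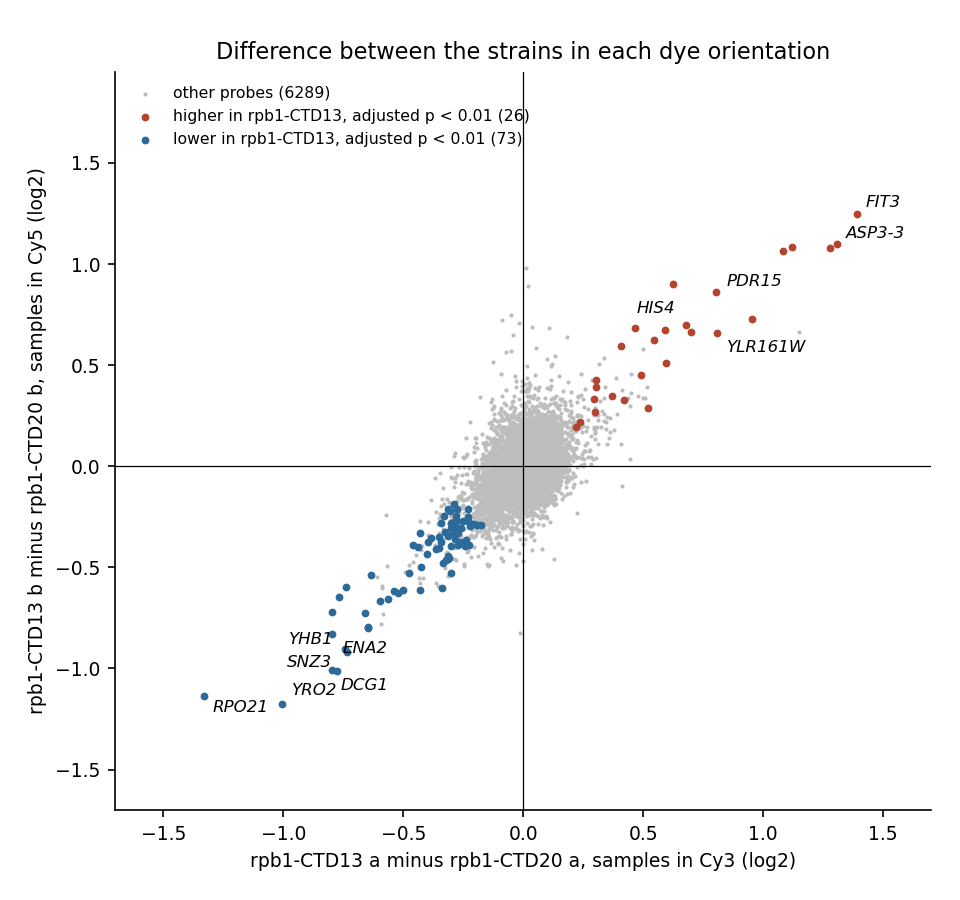
Each point is 1 of 6388 gene probes, with the log2 difference *rpb1-CTD13* minus *rpb1-CTD20* on the a arrays (strain in Cy3) on the x axis and on the b arrays (strain in Cy5) on the y axis. The 26 higher and 73 lower probes lie along the diagonal, with *FIT3* and *ASP3-3* at one end and *RPO21* and *YRO2* at the other.

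The clearest increases were at the asparagine catabolism locus. *ASP3-3*, a gene for the secreted asparaginase that frees nitrogen from asparagine, read -0.61 and -0.44 in *rpb1-CTD13* against -1.92 and -1.54 in *rpb1-CTD20*, a difference of 1.20 (SE 0.07; adjusted p = 9.47e-10). Its neighbour on chromosome XII, the uncharacterised *YLR161W*, read -0.08 and -0.05 against -0.89 and -0.71 (adjusted p = 6.36e-08). *YLR161W* was not above background on either *rpb1-CTD20* array, so it is given as at least 1.62-fold higher in *rpb1-CTD13*. It was *rpb1-CTD20* that departed from wild type here: the 8 wild type arrays ran from -0.59 to -0.32 for *ASP3-3*, and *rpb1-CTD13* minus wild type was -0.10 (95% interval -0.21 to 0.01), while *rpb1-CTD20* minus wild type was -1.30 (95% interval -1.41 to -1.19). *RPB1-CTDWT* shared the low level, at -1.84 and -1.77, and differed from *rpb1-CTD20* by 0.08 (95% interval -0.06 to 0.22; *rpb1-CTD20* minus *RPB1-CTDWT*). In the shorter truncations *ASP3-3* was above wild type, at 0.33 and 0.39 in *rpb1-CTD12* and 0.94 and 0.92 in *rpb1-CTD11*, yet it read -1.60 and -1.58 in *rpb1-CTD11* without *CDK8*. The next genes outward did not pass: *TAR1* differed by 0.19 (adjusted p = 0.618), *RNH203* by -0.03 (adjusted p = 0.893), *YLR162W* by -0.05 (adjusted p = 0.757) and *MAS1* by 0.05 (adjusted p = 0.679). The asparaginase gene exists as nearly identical tandem copies. The unnamed probes SCAB004042 (1.10), SCAB004045 (1.07) and SCAB004047 (1.18) had the same pattern over the groups. The copies therefore cannot be told apart, and the number of copies was not measured. These unnamed probes were called higher too, so the counts of higher probes hold this pattern more than once. SCAB004046 and SCAB004048 also passed as higher (adjusted p = 6.36e-08 and 3.3e-06), and their place is not known. With 1 of the 4 arrays left out, *ASP3-3* differed by 1.07 to 1.34 and *YLR161W* by 0.63 to 0.84. With spiked-in controls at 0, *ASP3-3* still passed (0.99, adjusted p = 1.97e-06) but *YLR161W* did not (0.52, adjusted p = 0.103).

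*FIT3*, which encodes a cell wall mannoprotein that retains siderophore-bound iron, had the largest increase. It read 0.39 and 0.58 in *rpb1-CTD13* against -0.999 and -0.67 in *rpb1-CTD20*, a difference of 1.32 (SE 0.17; adjusted p = 6.72e-05). Wild type ran from -0.83 to 0.02, with *rpb1-CTD13* above this range and *rpb1-CTD20* reaching below it, and *rpb1-CTD13* minus wild type was 0.85 (95% interval 0.57 to 1.12). *FIT3* was also high in *rpb1-CTD12* (0.25 and 0.66) but not in *rpb1-CTD11* (-0.73 and -0.41). Its relative *FIT2* pointed the same way without passing (0.91, adjusted p = 0.0152), and *FIT1* differed by -0.03 (adjusted p = 0.879). The rest of the iron regulon was mixed. Values were positive for 9 and negative for 21 of its genes, *FIT3* included, and 5 were higher and 9 lower at an unadjusted p under 0.05. Of 30 measured genes of that list, 1 was higher and 1, *COT1*, a vacuolar zinc and cobalt transporter, was lower (-0.41, adjusted p = 0.00488), with a list median of -0.08 beside 0.00 over all probes. The high-affinity uptake pair *FET3* (-0.68, adjusted p = 0.0357) and *FTR1* (-0.48, adjusted p = 0.0472), the ferric reductase *FRE1* (-0.53, adjusted p = 0.0168) and the siderophore transporter *SIT1* (-0.50, adjusted p = 0.168) had negative values that did not pass. *FIT3* passed in each fit with 1 of the 4 arrays left out but not without the dye term (adjusted p = 0.0142), while *COT1* passed only without the *rpb1-CTD13* a array (adjusted p = 0.0081 there and up to 0.161 otherwise).

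Several multidrug resistance genes were higher in *rpb1-CTD13*, the pumps *PDR15* and *PDR5* among them. *PDR15* and *PDR5* encode plasma membrane ABC pumps and are classical targets of the transcription factors Pdr1 and Pdr3. *PDR15* read 0.62 and 0.50 in *rpb1-CTD13* against -0.19 and -0.36 in *rpb1-CTD20* (difference 0.83, SE 0.17; adjusted p = 0.00642), and *PDR5* read 0.54 and 0.61 against -0.09 and -0.29 (difference 0.76, SE 0.16; adjusted p = 0.00765). The *rpb1-CTD13* values sat inside the wild type range of both genes, and the *rpb1-CTD20* values below it. *PDR15* in *rpb1-CTD20* minus wild type was -0.74 (adjusted p = 0.00702) and *rpb1-CTD13* minus wild type 0.09 (95% interval -0.19 to 0.37). In a list of 13 measured Pdr1 and Pdr3 targets, which was put together after *PDR15* and *PDR5* had been seen, 5 were higher and none lower (median 0.23). The other members that passed were *RSB1*, a sphingoid base exporter (0.47), *IPT1*, an enzyme of sphingolipid synthesis (0.23), and *YGR035C*, a gene of unknown function (0.50). *SNQ2* and *YOR1*, pumps of the same regulon, differed by 0.06 and 0.04 and did not pass. With the spiked-in controls at 0 none of the 13 passed (median 0.022). Without the dye term 1 of them passed, and *PDR15* (adjusted p = 0.219) and *PDR5* (0.0668) did not. The list count was between 0 and 1 when any 1 of the 4 arrays was left out (*PDR15* adjusted p = 0.0239 to 0.136, *PDR5* 0.0214 to 0.169), while the direction of both genes stayed.

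Some amino acid synthesis genes were higher as well. *HIS4*, a multifunctional histidine synthesis enzyme, read 0.20 and 0.26 in *rpb1-CTD13* against -0.48 and -0.43 in *rpb1-CTD20*, so the strains were far apart and each was tight (difference 0.69, SE 0.11; adjusted p = 0.000897). *SER3*, the first enzyme of serine synthesis, differed by 0.55 (adjusted p = 0.00654) and *GLN1*, glutamine synthetase, by 0.36 (adjusted p = 0.00765). These were the 3 higher members among 35 measured amino acid genes under the activator Gcn4, with no lower member and a list median of 0.06. *GCN4* itself differed by -0.19 (adjusted p = 0.251). Without the dye term *HIS4* passed (adjusted p = 0.00486) but *SER3* (0.999955) and *GLN1* (0.0547) did not. None of the 3 passed when 1 of the 4 arrays was left out (*HIS4* adjusted p = 0.0124 to 0.0202, *SER3* 0.0464 to 0.0787, *GLN1* 0.0344 to 0.131). Outside the lists, *ICY2* (0.63), the lactate and 2-hydroxyglutarate enzyme *DLD3* (0.41), *PAD1* (0.38), *YDR042C* (0.37), *ATG10* (0.32) and *RIM8* (0.21) were also higher. *YDR042C* was not above background on every one of the 4 arrays, and its difference ran from 0.15 to 0.69 over the alternative settings. With 1 array left out, *ICY2* (adjusted p = 0.0268 to 0.103), *PAD1* (0.0311 to 0.104), *ATG10* (0.0161 to 0.065) and *RIM8* (0.0626 to 0.069) failed in all 4 fits, *DLD3* passed in 1 (up to 0.0453) and *YDR042C* in 2 (up to 0.0216).

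**Figure D2:**
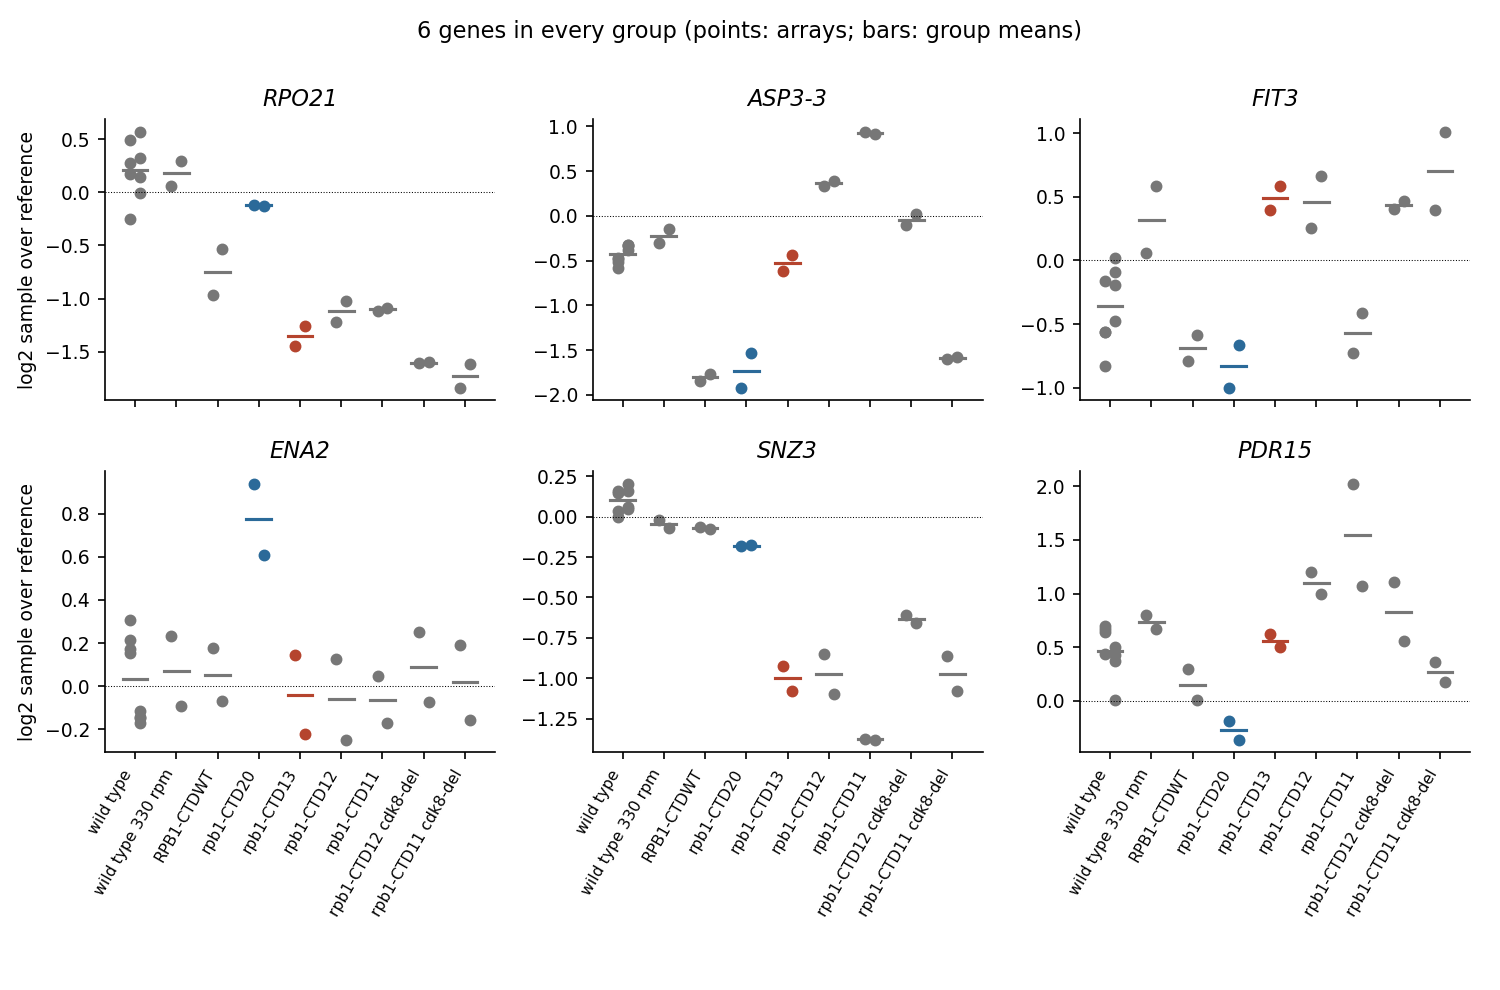
Log2 strain over reference (y axis) of *RPO21*, *ASP3-3*, *FIT3*, *ENA2*, *SNZ3* and *PDR15* in the 9 groups (x axis), with each array as a point (left, strain in Cy3; right, strain in Cy5), group means as bars, *rpb1-CTD13* in red and *rpb1-CTD20* in blue. *ASP3-3* is low in *rpb1-CTD20* and *RPB1-CTDWT*, *ENA2* is high only in *rpb1-CTD20* and *SNZ3* is low in *rpb1-CTD13* and every shorter truncation.

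Genes of NAD synthesis were lower in *rpb1-CTD13*. The *BNA* genes encode the kynurenine pathway, which makes NAD from tryptophan. *BNA4*, kynurenine 3-monooxygenase, read -0.53 and -0.73 in *rpb1-CTD13* against 0.01 and -0.11 in *rpb1-CTD20* (difference -0.58, SE 0.05; adjusted p = 4.43e-07). *BNA5*, kynureninase, read -0.81 and -0.62 against -0.17 and -0.08 (-0.58, SE 0.05; adjusted p = 9.89e-07). *BNA1* differed by -0.69 (adjusted p = 0.00051), *BNA6* by -0.47 (adjusted p = 0.000521) and *BNA2*, the first enzyme of the pathway, by -0.32 (adjusted p = 0.00074), although *BNA2* was above background on only 1 of 2 arrays of each strain and read -0.093 under median centring (adjusted p = 0.783). With *TNA1*, the high-affinity nicotinic acid permease (-0.29, adjusted p = 0.00449), 6 of the 16 measured genes of the NAD list were lower and none higher, with a list median of -0.12. *BNA7* (0.14, adjusted p = 0.259) and *BNA3* (-0.10, adjusted p = 0.511) did not pass, nor did *SUM1* (-0.09, adjusted p = 0.505) and *HST1* (-0.07, adjusted p = 0.670), which encode a repressor and its NAD-dependent deacetylase known to act on *BNA* promoters. *NRT1*, a nicotinamide riboside transporter outside the list, read -0.86 and -0.93 against -0.21 and -0.13 (-0.72, SE 0.07; adjusted p = 4.7e-06). The *rpb1-CTD13* arrays lay below the wild type range in *BNA4*, *BNA5* and *NRT1*, whereas the *rpb1-CTD20* arrays lay inside it for *BNA4* and *BNA5* and just below it for *NRT1*. *BNA4* in *rpb1-CTD20* minus wild type was -0.06 (95% interval -0.14 to 0.02). *BNA4*, *BNA5* and *NRT1* passed in each of the fits with 1 array left out, but *BNA4* failed without the dye term (adjusted p = 0.0351). The count of 6 became 4 without either a array, 2 without either b array and 1, *BNA5*, without the dye term.

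The vitamin B6 and thiamine list held 4 lower genes of 22 probes and none higher (median -0.11). *SNZ3*, a gene for the synthase that makes pyridoxal phosphate, read -0.92 and -1.08 in *rpb1-CTD13* against -0.18 and -0.17 in *rpb1-CTD20* (difference -0.82, SE 0.08; adjusted p = 1.31e-06). *SNO2*, for its glutaminase partner, read -0.74 and -0.63 against -0.14 and 0.04 (-0.63, SE 0.05; adjusted p = 2.14e-07). The wild type arrays ran from -0.0031 to 0.21 for *SNZ3*, and every array of a strain with 13 repeats or fewer read -0.61 or less, *CDK8* deletions included. *THI11*, of hydroxymethylpyrimidine synthesis, differed by -0.39 (adjusted p = 0.00186) and *THI4*, of thiazole synthesis, by -0.39 (adjusted p = 0.00545). Under median centring these became -0.23 (adjusted p = 0.354) and -0.25 (adjusted p = 0.321). Without the dye term neither passed (adjusted p = 0.0345 and 0.0984). The list count was 2 in either setting. *SNZ1* and *SNO1*, the gene pair induced in stationary phase, had positive values that did not pass (0.41, adjusted p = 0.0305, and 0.26, adjusted p = 0.336). *SNZ3* and *SNO2* have near-identical copies on other chromosomes, as *THI11* does, and a probe may read more than 1 copy. *SNZ3* and *SNO2* passed whichever array was left out, *THI11* only without the *rpb1-CTD20* a array (adjusted p = 0.00432, otherwise up to 0.0716) and *THI4* in no such fit (0.0229 to 0.118).

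*ENA2* was the gene called lower in *rpb1-CTD13* whose difference came from a raised level in *rpb1-CTD20* alone. This gene for a plasma membrane sodium pump read 0.14 and -0.22 in *rpb1-CTD13* against 0.94 and 0.61 in *rpb1-CTD20* (difference -0.81, SE 0.05; adjusted p = 2.21e-09). All 22 arrays outside *rpb1-CTD20* lay between -0.25 and 0.31, so only the 20-repeat strain was raised. The unnamed probe SCAB001049 followed *ENA2* (0.19 and -0.15 against 0.99 and 0.57). The *ENA* pumps are tandem copies of near-identical sequence. The copy with its own probe, *ENA5*, differed by -0.16 (adjusted p = 0.395), and *RSM10* on the other side by -0.02 (adjusted p = 0.936). *ENA2* passed without any 1 of the 4 arrays but not without the dye term (adjusted p = 0.0732).

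Other decreases fell in scattered functions. *YRO2*, which encodes a membrane protein of the heat shock protein Hsp30 family, read -1.33 and -1.28 in *rpb1-CTD13* against -0.32 and -0.11 in *rpb1-CTD20* (-1.09, SE 0.20; adjusted p = 0.00288). *YHB1*, the flavohaemoglobin that detoxifies nitric oxide, read -1.66 and -1.63 against -0.93 and -0.72 (-0.83, SE 0.15; adjusted p = 0.00232). *YHB1* read -0.47 and -0.35 in *rpb1-CTD12* and 0.31 and 0.70 in *rpb1-CTD11*, above *rpb1-CTD13*, but -2.43 to -2.05 in the 4 arrays of these truncations without *CDK8*, below it. *YRO2* read -0.22 and -0.48 in *rpb1-CTD12*, -1.23 and -1.68 in *rpb1-CTD11* and 1.26 to 1.82 in the strains without *CDK8*, and *rpb1-CTD12* minus *rpb1-CTD13* was 0.95 (adjusted p = 0.00117). Both genes failed the test when any 1 of the 4 arrays was left out (*YRO2* adjusted p = 0.0168 to 0.071, *YHB1* 0.0164 to 0.0517). *DCG1*, a gene with regulation like that of the allantoin genes, read -0.73 and -1.14 against 0.07 and -0.13 (-0.90, SE 0.10; adjusted p = 2.51e-05), and passed in all 4 of those fits but not without the dye term (adjusted p = 0.169) or under median centring (0.0333). The sorbitol dehydrogenase gene *SOR2* read -0.86 and -0.79 against -0.09 and -0.14 (adjusted p = 1.7e-05) while it was 0.31 and 0.06 in *rpb1-CTD11* and -0.97 to -0.64 in the strains without *CDK8*. The mitotic cyclin *CLB1* differed by -0.42 (adjusted p = 1.3e-05), the phosphatidylcholine enzyme *OPI3* by -0.46 (adjusted p = 0.00423) and the oxysterol-binding protein *OSH6* by -0.56 (adjusted p = 0.00218). *OSH6* read 0.41 and 0.38 in *rpb1-CTD20*, above a wild type range of -0.02 to 0.14. Its difference was larger in size than either value, so it did not come from *rpb1-CTD20* alone. *INO1*, the inositol synthesis gene of the *OPI3* list, differed by -0.38 without passing (adjusted p = 0.0795). *CLB1* and *SOR2* passed without any 1 of the arrays, but *CLB1* failed without the dye term (adjusted p = 0.718), while *OPI3* (adjusted p = 0.0229 to 0.0847) and *OSH6* (0.0172 to 0.0477) failed in all 4 of those fits.

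**Figure D3:**
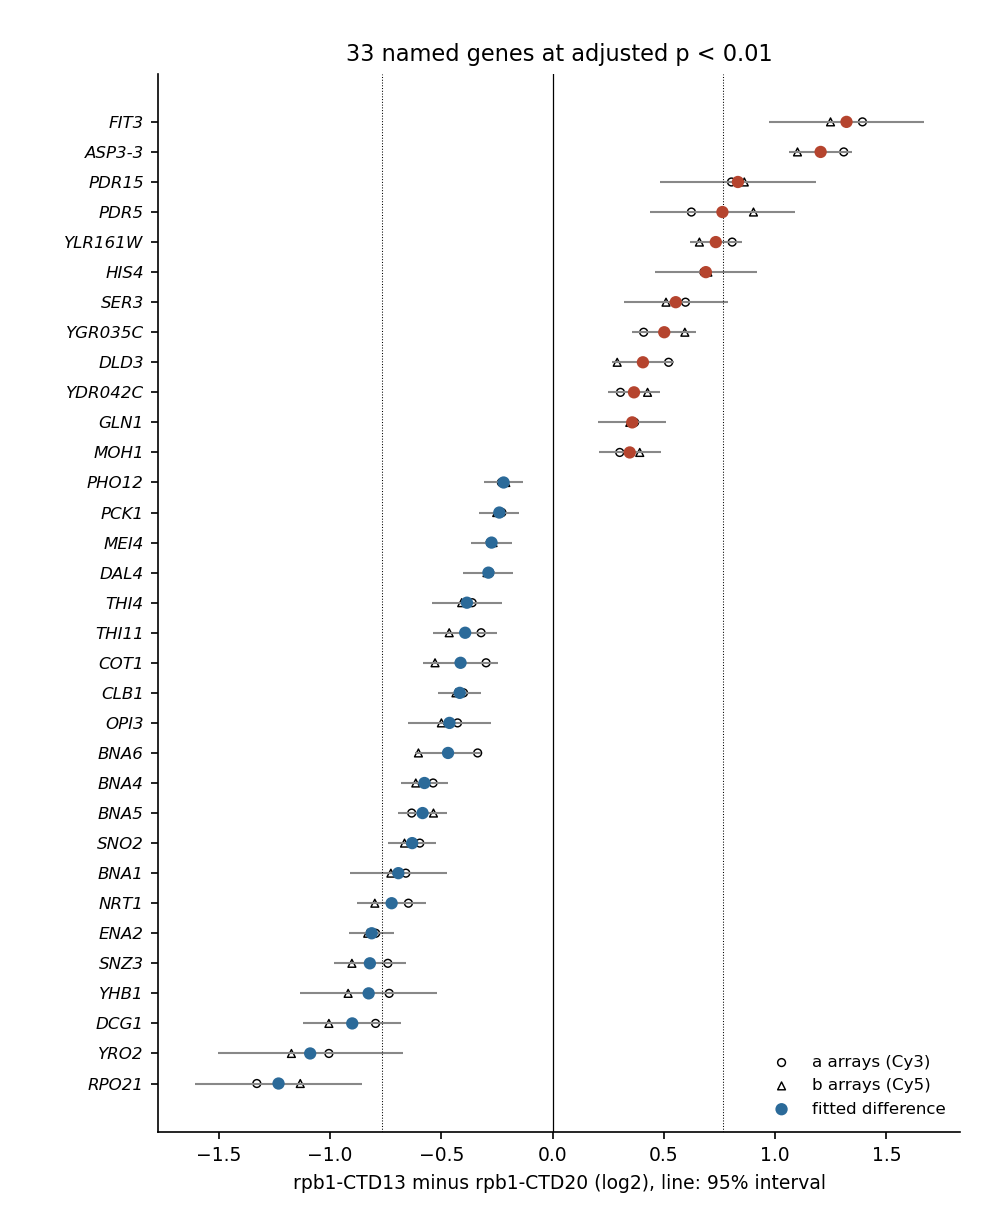
The 33 named genes that passed an adjusted p of 0.01 under the naming rule, with the fitted log2 difference *rpb1-CTD13* minus *rpb1-CTD20* (filled points), its 95% interval (line) and the difference on the a arrays (circles) and b arrays (triangles). Dotted lines mark a 1.7-fold change, which *FIT3*, *ASP3-3* and *PDR15* exceed upwards and 6 genes from *ENA2* to *RPO21* exceed downwards.

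Some members of 3 further groups were lower by small amounts. The *PAU* genes encode nearly identical cell wall mannoproteins that respond to low oxygen, and most lie close to chromosome ends. Of 16 measured, 6 were lower (*PAU4* -0.31, adjusted p = 9.86e-05; *PAU5* -0.33, adjusted p = 0.000833; also *PAU1*, *PAU15*, *PAU16* and *PAU20*), and the list median was -0.18. The values were negative for 16 of 16, but their probes may read each other's transcripts, so these are not 16 separate measurements. The *PAU* count fell to between 1 and 4 with 1 array left out. Among 38 genes of middle sporulation, which are kept silent in growing cells, *MIP6* (-0.52, adjusted p = 6.72e-05), *GAS2*, *SSP1*, *DIT1* and *MPC54* were lower and none higher, with a median of -0.04 that turned to 0.20 under median centring of the arrays, and only 15 of the 38 were above background on all 4 arrays. None of the 5 passed under that centring, where *MPC54* turned to 0.04, and 1 or 2 passed with 1 array left out. Allantoin breakdown had 2 lower genes of 11, *DCG1* and *DAL4* (-0.29, adjusted p = 0.00335). The *DAL4* probe was not above background on every one of the 4 arrays. *DAL4* failed in all 4 fits with 1 array left out (adjusted p = 0.0209 to 0.0705) and was -0.054 under median centring (adjusted p = 0.861). These 3 lists were also put together after the values had been seen. *MEI4*, a gene of meiotic recombination, passed with a negative value (adjusted p = 0.00109) but was above background on neither *rpb1-CTD13* array and on 1 *rpb1-CTD20* array, so no fold is given. It failed in all 4 fits with 1 array left out (adjusted p = 0.0107 to 0.0288) and turned to 0.039 under median centring.

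Among broad pathways, few members passed. All 42 genes of the respiratory chain and ATP synthase had values below 0 (median -0.16) and 16 of them an unadjusted p under 0.05, where 3176 of all 6388 probes were below 0 and 591 lower at that p, but none passed the adjusted p, the lowest being *QCR9* (-0.35, adjusted p = 0.0432). Trehalose and glycogen genes had a median of -0.15 with none of 19 passing, and general stress genes under Msn2 and Msn4 a median of -0.16, with *YRO2* lower and *MOH1* higher (0.35, adjusted p = 0.00452) among 31. The *MOH1* probe was not above background on every one of the 4 arrays. *MOH1* failed in all 4 fits with 1 array left out (adjusted p = 0.0219 to 0.0935) and was 0.14 with spiked-in controls at 0 (adjusted p = 0.513). Proteasome genes, whose median in *rpb1-CTD12* minus *RPB1-CTDWT* was 0.49, had a median of 0.06 here with none of 34 passing. Cytosolic ribosomal protein genes (125 probes, median 0.00), ribosome biogenesis genes (65, median 0.05), mitochondrial ribosomal protein genes (64, median 0.05) and Mediator genes (25, median 0.00) had no member past the adjusted p. Among RNA polymerase II subunits and general factors, *RPO21* was the only one of 31 to pass. The regulators *RPN4* (-0.05, adjusted p = 0.843), *STE12* (0.01, adjusted p = 0.980) and *UME6* (-0.07, adjusted p = 0.564) did not pass either.

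**Figure D4:**
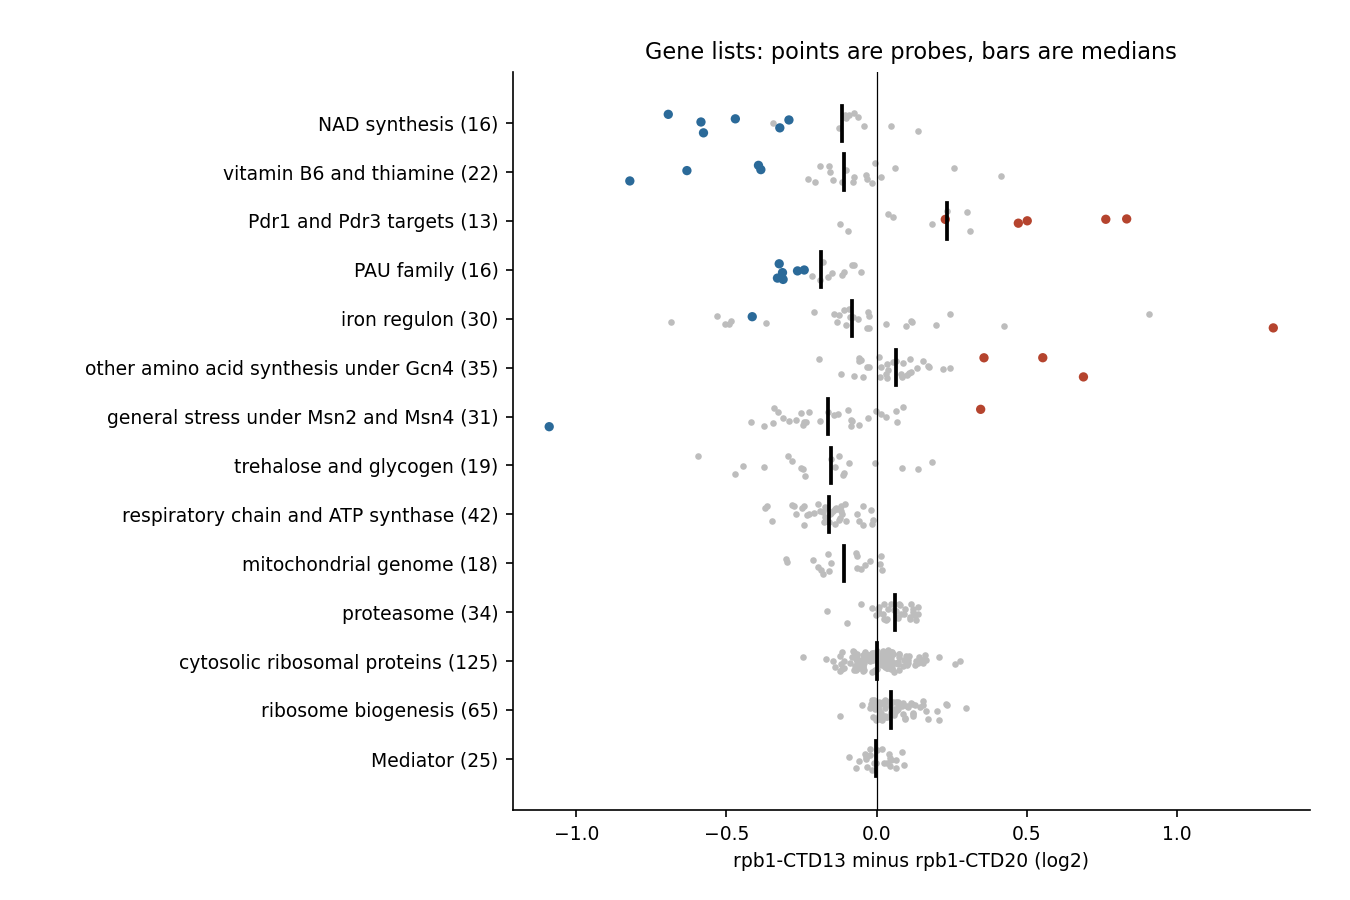
Log2 difference *rpb1-CTD13* minus *rpb1-CTD20* (x axis) of every measured probe of 14 gene lists (y axis, with the number of probes). Coloured points passed an adjusted p of 0.01, red higher and blue lower, and black bars are list medians, which run from -0.18 for the *PAU* family to 0.23 for the Pdr1 and Pdr3 targets.

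The wild type range shows which strain lay apart. Of the 73 lower probes, 52 had both *rpb1-CTD13* arrays beyond all 8 wild type arrays and the *rpb1-CTD20* arrays not, 4 the reverse, 13 had both strains beyond and 4 neither. Of the 26 higher probes the counts were 12, 9, 3 and 2. Over all probes, 8.81% had only *rpb1-CTD13* beyond wild type and 2.79% only *rpb1-CTD20*. Thus most decreases, such as *DCG1* and *BNA4*, were levels of *rpb1-CTD13* alone outside the wild type range. For *ASP3-3*, *PDR15* and *ENA2* it was *rpb1-CTD20* that lay outside it, and for *SNZ3* both strains lay below it. The wild type arrays lack the *LYS2* and *MET17* levels of both truncations, and the part of that difference in these counts was not tested.

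The same probes were then read in 2 contrasts that used none of the 4 arrays. Several of the 26 higher probes shared the pattern of *ASP3-3*, so they are not 26 separate measurements. In *rpb1-CTD12* minus *RPB1-CTDWT*, where 29.2% of all probes passed an adjusted p of 0.01 in either direction (42% in *rpb1-CTD11* minus *RPB1-CTDWT*), 26 of the 26 higher probes had the same sign and 23 were higher at that p, beside 15.7% of all probes. Of the 73 lower probes, 64 had the same sign and 41 were lower at that p, beside 13.5% of all probes. In *rpb1-CTD11* minus *RPB1-CTDWT*, 25 of 26 and 63 of 73 had the same sign, with 23 and 49 passing in that direction (20.8% and 21.2% of all probes) and 6 of the lower probes passing in the opposite one. *YHB1* was among those 6, at 1.15 (adjusted p = 3.32e-06), and so was *SOR2* (0.32, adjusted p = 0.0027). *HIS4* was 0.71 in *rpb1-CTD12* minus *RPB1-CTDWT* and 1.24 in *rpb1-CTD11* minus *RPB1-CTDWT*, *SNZ3* -0.90 and -1.31, and *PDR5* 0.98 and 1.47. *FIT3* was 1.15 and then 0.12 (adjusted p = 0.564 for the latter). *ENA2* was -0.11 and -0.12. Over all probes, 59.1% had the same sign in *rpb1-CTD12* minus *RPB1-CTDWT* and 58.8% in *rpb1-CTD11* minus *RPB1-CTDWT*, where 889 of 6388 passed in the opposite direction. Both contrasts share the *RPB1-CTDWT* arrays and, in the fit, the estimate of the spread, and their strains differ in the markers: *MET17* was -4.91 in *rpb1-CTD12* minus *RPB1-CTDWT* (adjusted p = 4.18e-17) and 0.86 in *rpb1-CTD11* minus *RPB1-CTDWT* (adjusted p = 8.29e-07), and *LYS2* 2.68 and 2.88. The part of the markers in these counts was not tested.

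**Figure D5:**
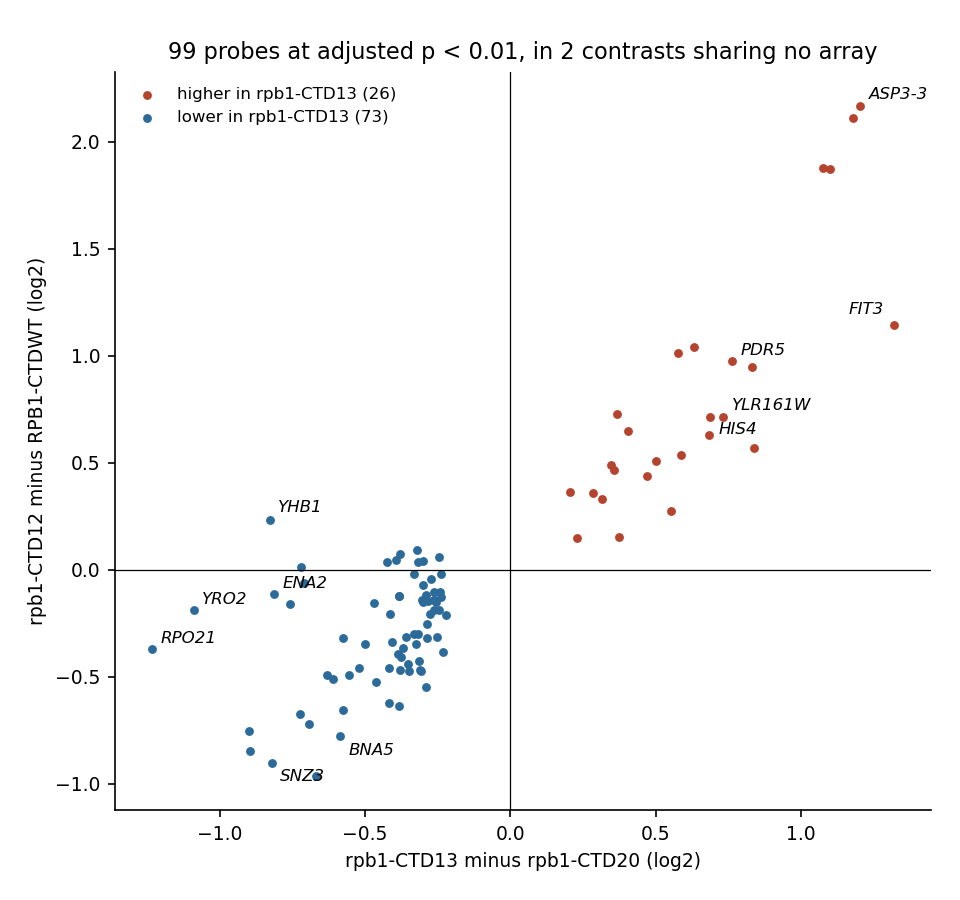
The 99 probes that passed, with the log2 difference *rpb1-CTD13* minus *rpb1-CTD20* on the x axis and *rpb1-CTD12* minus *RPB1-CTDWT* on the y axis. The 26 higher probes (red) all lie above 0 and 64 of the 73 lower probes (blue) below it, with *YHB1* above.

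A share of the lower genes lay near chromosome ends. Of the 55 lower probes with a known place, 20 (36.4%) belonged to genes within 30 kb of the outermost annotated gene of their chromosome, beside 303 of 5305 (5.71%) of all located probes and 3 of 18 (16.7%) of the higher ones. They included *SNZ3*, *SNO2*, *BNA6*, *THI11*, *SOR2*, *DCG1*, *DAL4*, *PHO12*, *YEL073C* and the *PAU* genes *PAU1*, *PAU4*, *PAU15*, *PAU16* and *PAU20*, several of which have near-identical copies at other ends. With 1 of the 4 arrays left out, 36.4% to 52.6% of the lower probes (15 to 27 located) were near an end, and with the 4 arrays fitted alone 38 of 195 (19.5%). No chromosome differed as a whole: the medians of the 16 nuclear chromosomes lay between -0.02 and 0.02, and the median of the mitochondrial probes was -0.07.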

How the data were processed

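RNA of each culture was hybridised with a common wild type reference on 2-colour spotted oligonucleotide arrays carrying spiked-in controls. Per the labels, arrays were read on an Agilent scanner and quantified with Imagene. The deposited scanner files hold the spot intensity and its background in each channel, not normalized, and were the values used. The authors' table of log2 ratios per spot, made by print-tip loess (span 0.4) without background subtraction and corrected for gene-specific dye bias, served as an alternative. The authors' own comparison matrix (fold changes and p-values, made with limma 2.12.0) was not used.

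Intensities were background-corrected (normexp, offset 50) and loess-normalized within each array (span 0.3, control spots at weight 0), spots of a probe were averaged, and limma 3.58.1 in R 4.3.3 was fitted to all 24 arrays with group and dye as terms. P-values were Benjamini-Hochberg adjusted over 6388 gene probes. Calls needed a fold change above 1.7 beside an adjusted p below 0.01. A probe was above background where its signal exceeded the 99th percentile of empty spots. The number of arrays limits the precision. Since letter a or b gives the dye orientation, the dye term is also the replicate block, and the deviations of the 2 a arrays from their group means correlated at r = 0.84.

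Named genes were up to 15 in each direction by size among called genes and then by p, up to 4 members of each list by p, *RPO21* with its neighbours, the strain markers and genes the study discusses. Further list members and neighbours were named after their values were seen. The members and lists were chosen with earlier results of these data known, and the lists of Pdr1 and Pdr3 targets, *PAU* genes, middle sporulation, allantoin breakdown and sodium pumps after the values were seen. Chromosome order came from RefSeq's R64 annotation, which matched 5324 named probes. The array files name no genome build, so no coordinates are given, and probe sequences were not used here. Alternatives covered background, normalization, scaling, the dye term, the arrays fitted, filters and the fold threshold.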

Additional observations from a re-analysis of the deposited data

Results flagged for a closer look

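*PDR15* had 1 wild type array far from the other 7. The wild type k2-b array read 0.0018, the next lowest 0.37 and the highest 0.70, so the gap was 0.532 of the range, just over Dixon's critical value. It was the only such case among 17 genes looked at in the 8 wild type arrays. The critical value stands for about 1 in 20 among independent values of 1 kind. These arrays pool both dye orientations, uncorrected here, and the k labels, so that rate is only nominal. The *rpb1-CTD20* arrays (-0.19 and -0.36) lay below that array too.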

How the results depend on the processing

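The 7 higher and 7 lower called probes, and the 26 and 73 that passed the adjusted p, depended on the fit as follows. Without the dye term, that is without the replicate block, 4 and 4 were called and 11 and 22 passed the adjusted p, all 33 of them among the 99. Leaving out 1 of the 4 arrays gave 5 to 7 higher and 5 to 6 lower calls, and 10 to 20 higher and 19 to 32 lower at the adjusted p, with *RPO21* between -1.31 and -1.15 (its values without the *rpb1-CTD13* a and *rpb1-CTD20* a arrays, -1.20 and -1.15, no longer passed). Median centring left 12 and 25 at the adjusted p and turned *MEI4* to 0.039. Spiked-in controls at 0 gave 24 lower calls, and 6 and 37 at the adjusted p. The 4 arrays fitted alone gave 136 and 238, and the fit without the wild types gave 14 higher. A fold threshold of 1.5 gave 13 and 15 calls, and one of 2 gave 2 lower calls. The share of called probes with the same sign in *rpb1-CTD12* minus *RPB1-CTDWT* was 92.9% as reported and 100% under median centring. The cause of these shifts was not tested. A set of 44 passing probes, named and unnamed and without *RPO21*, was followed singly. Of these, 25 no longer passed the adjusted p without the dye term, 23 with spiked-in controls and 8 in the authors' table. Of all 99, 28 still passed with spiked-in controls and 84 in the authors' table. Leaving out background subtraction, print-tip loess, the filter on dim probes, saturated spots and an intensity trend moved no count of calls by over 1.5 times. Dim probes limit the reading. The median signal was 225 for the higher and 251 for the lower probes, beside 533 for all probes. Being above background did not set them apart: 82 of the 99 were so on all 4 arrays, a share similar to the 5491 of all 6388 probes.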
